A study of Rattus norvegicus with 16 samples.

Results

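Secreted serpins of the liver, 9 genes in all, were followed through *Pdrg1* silencing in rat hepatoma H35 cells, a hepatocyte-derived tumour line. They were *Serpina6*, *Serpinc1*, *Serpina1*, *Serpina3n*, *Serpina10*, *Serpind1*, *Serpinf1*, *Serpinf2* and *Serping1*, out of 26269 gene names on a one-color Agilent array. These were chosen by name as plasma serpins made by liver, with *Serpina6* and *Serpinc1* taken because their signal differed between silenced and control cells on these same arrays. *Serpinf2* and *Serpina6* also stand in a gene list that the study chose on these arrays. Differences of these 3 genes from the control are therefore given as a description with no test, while the other 6 genes were tested against the control and all 9 were tested between silenced groups. All 9 were named with earlier results of these arrays known, and the comparisons between silenced groups use the same silenced arrays, so none of the tests is independent of the choice.

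The 16 arrays fell into 4 groups, each with 4 biological replicates. All cells had received an shRNA plasmid by lipofection, and selection with G418 at 1.8 mg/ml began 48 hours later. CN-10 was a single stable clone carrying a negative control sequence, 4-18 a single stable clone carrying shRNA4 against *Pdrg1*, and 3-44 a single stable clone carrying shRNA3; these clones were selected further at 4 mg/ml. The fourth group, shRNA3T, was a pool of cells that had taken up the shRNA3 plasmid and passed only the first selection, so its control CN-10 differed from it also in being a clone and in the length of selection. The 4 slides held 1 group each, and that of 4-18 was scanned on another day, so clone, slide and silencing cannot be told apart.

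Serpins are a family of proteins that share a fold with an exposed reactive centre loop. In the inhibitory members a protease cleaves this loop and is trapped in a covalent complex that is then cleared from the circulation, chiefly by hepatocytes. Other members have lost inhibition and serve as carriers or signals. Hepatocytes make most of the serpins of plasma, where they limit clotting, fibrinolysis, complement and the proteases of neutrophils, and several of them are acute phase proteins.

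Each member was read by 1 probe, except *Serpinc1*, which had a further probe, and each probe had 1 spot per array except that of *Serpind1*, with 10 spots. All 9 members were above background on every array of at least 1 group, against 16468 of 26269 gene names. The 60-base probes of the 3 members below are shown because their sequence is coding, so that each stands for the mRNA of the named protein: *Serpina6*, which differed most from the control, *Serpina1*, which differed in the pool, and *Serpinf1*, whose mean was below that of the control in all 3 silenced groups.
Serpina6 probe: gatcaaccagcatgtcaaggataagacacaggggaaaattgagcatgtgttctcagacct
Serpina1 probe: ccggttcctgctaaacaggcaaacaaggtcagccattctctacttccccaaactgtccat
Serpinf1 probe: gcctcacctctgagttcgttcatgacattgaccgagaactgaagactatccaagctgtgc
On the rn4 build, as the array files give it, the probe of *Serpina6* lies on the minus strand at chr6:127918757-127918816 and that of *Serpinf1* on the minus strand at chr10:62714118-62714177. The *Serpina1* probe matches chr6:127999839-128000771 on the minus strand, 933 bases of genome for 60 bases of probe. The other probes lie at chr6:127887685-127887744 (*Serpina10*, minus strand), chr6:128469197-128469256 (*Serpina3n*, plus strand), chr10:62748499-62748558 (*Serpinf2*, minus strand), chr11:85667071-85667130 (*Serpind1*, minus strand), chr13:76562664-76562723 (*Serpinc1*, plus strand) and chr3:67968812-67968871 (*Serping1*, minus strand).

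For 5 of the 9 members the 250 bases before the annotated start of transcription were at hand (RefSeq, GRCr8 build). The 4 windows below are shown because each holds a match to at least 1 of 5 motifs, which the window of *Serpina1* does not. Capitals mark matches, on either strand, to letters known from liver gene promoters: GTTAAT (HNF1, one arm of its site), TTGCNNAA (C/EBP), AGGTCA (one arm of nuclear receptor sites), TATAAA (a core promoter box) and TTCNNNGAA (STAT factors).
Serpinc1 chr13:75790308-75790557, plus strand: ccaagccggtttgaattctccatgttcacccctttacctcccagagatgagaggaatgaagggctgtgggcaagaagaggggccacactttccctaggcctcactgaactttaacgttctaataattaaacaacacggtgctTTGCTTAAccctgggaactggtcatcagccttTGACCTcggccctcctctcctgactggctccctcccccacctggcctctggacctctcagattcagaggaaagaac
Serpina3n chr6:129088142-129088391, plus strand: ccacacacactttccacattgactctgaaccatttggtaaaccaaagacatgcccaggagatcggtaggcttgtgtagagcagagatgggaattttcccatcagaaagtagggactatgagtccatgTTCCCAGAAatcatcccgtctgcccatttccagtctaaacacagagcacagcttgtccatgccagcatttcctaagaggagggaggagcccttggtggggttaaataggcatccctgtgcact
Serpinf1 chr10:60760899-60761148, minus strand: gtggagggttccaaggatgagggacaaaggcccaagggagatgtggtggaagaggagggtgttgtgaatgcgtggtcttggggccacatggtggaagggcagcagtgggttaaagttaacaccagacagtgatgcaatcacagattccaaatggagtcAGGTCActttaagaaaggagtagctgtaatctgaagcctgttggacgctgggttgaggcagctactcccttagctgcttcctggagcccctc
Serpinf2 chr10:60778783-60779032, minus strand: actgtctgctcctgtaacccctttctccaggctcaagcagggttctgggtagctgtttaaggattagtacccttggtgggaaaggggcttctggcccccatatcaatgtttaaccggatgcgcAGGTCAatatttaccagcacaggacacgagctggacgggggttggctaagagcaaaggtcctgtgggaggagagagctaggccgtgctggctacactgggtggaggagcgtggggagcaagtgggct
The window of *Serpinc1* held TTGCTTAA, with its first base 108 bases before the start, and the complement of AGGTCA 76 bases before it. *Serpina3n* held TTCCCAGAA 123 bases before its start. *Serpinf1* and *Serpinf2* each held AGGTCA, 92 and 127 bases before the start. No window held GTTAAT or TATAAA. Among 33469 rat promoter windows of the same length, 6.45% held GTTAAT, 9.22% TTGCNNAA, 14.1% AGGTCA, 12.9% TATAAA and 7.67% TTCNNNGAA. The motifs were chosen with the sequences in view and a match is a description, not a binding site.

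The targeted gene, *Pdrg1*, read 41.3% lower than CN-10 in 4-18, 49.7% lower in 3-44 and 44.5% lower in shRNA3T, with adjusted p from 0.105 to 0.143 by limma. Of 9 hepatocyte markers, 7 were well above background on all 16 arrays and *Apoa1* and *Apoa2* on 15, while *Ptprc* of leukocytes and *Pecam1* of endothelium were so on no array. The arrays of 4-18 were the dimmest, with 53.1% to 64.1% of spots well above background against 64.7% to 74.3% in the other groups. The hepatocyte markers themselves differed between groups. In 4-18, 5 of the 9 were called lower than CN-10 (*Apoa1*, *Tf*, *Ahsg*, *Fga* and *Apob*, with log2 differences from -2.12 to -1.09) and *Ttr* higher (2.93). In 3-44, *Ttr*, *Apoa1* and *Fga* were called higher (2.84, 2.18 and 1.66), as were *Ttr*, *Fga* and *Fgb* in the pool (2.39, 2.65 and 1.16), with none lower, while *Alb* stayed within 0.10 of CN-10 in every group. The median of the 9 differences from CN-10 was 0.42 in the pool, 0.66 in 3-44 and -1.09 in 4-18. Of 9 markers of leukocytes, endothelium and stellate cells or fibroblasts, 2 were called against CN-10, *Cd14* with a log2 difference of 2.04 in 3-44 and *Des* with one of -1.17 in 4-18. The part of these markers in the results on serpins was not tested. The RNA came from whole cultures, in which more cells making a transcript and more RNA per cell cannot be told apart.

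Values below are log2 intensities after background correction and quantile normalization, and a level of one gene cannot be set against that of another because probes differ in brightness. A gene was called when it differed at least 2-fold with a Benjamini-Hochberg adjusted p under 0.05 in limma, over all probes. Counts at an unadjusted p under 0.05 have no fold limit. Some of the genes in them passed the adjusted limit and were not called only because they stayed under 2-fold. Against CN-10, 4 of the 9 members were called higher in 4-18 (2.62% of all gene names were), 4 in 3-44 (0.685%) and 6 in shRNA3T (1.2%), but these counts hold the members chosen for their difference and are no result about the family. No member was called lower, compared with 3.54%, 0.788% and 1.19% of all gene names. In limma, 2, 1 and 1 members were lower at an unadjusted p under 0.05. Of these, *Serpinf1* and *Serpind1* in 4-18 and *Serpinf1* in shRNA3T also had an adjusted p under 0.05 and stayed under 2-fold. Among the 6 members named as liver serpins and not for their own difference, 1 was called higher in 4-18 (*Serping1*), 1 in 3-44 (*Serpina3n*) and 3 in shRNA3T (*Serpina1*, *Serpina3n* and *Serping1*). The median difference of these 6, in the same order of groups, was -0.16, 0.36 and 0.89. The median of all genes was within 0.01 of 0 in each comparison. Quantile normalization holds it there, so it is no independent yardstick for the members. The 3 comparisons share the CN-10 arrays.

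Between silenced groups, 4-18 was higher than 3-44 in 2 members (2.1% of gene names were) and lower in 1 (2.88%). It was higher than shRNA3T in 1 (1.86%) and lower in 2 (2.7%). Clone 3-44 and the pool, which carry the same shRNA3, differed in 1 member, lower in 3-44 (1.18% of gene names were), and in none that was higher (0.944%). Under 2-fold, *Serpina10* and *Serpinf1* were higher in 3-44 than in the pool (adjusted p = 0.0294 and 0.0218 in limma). *Serpina1* and *Serpinf2* were lower there (adjusted p = 0.00476 and 6.92e-05), also under 2-fold. The 4 members called between silenced groups were *Serpina6*, *Serpina3n*, *Serping1* and *Serpina1*.

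**Figure D1:**
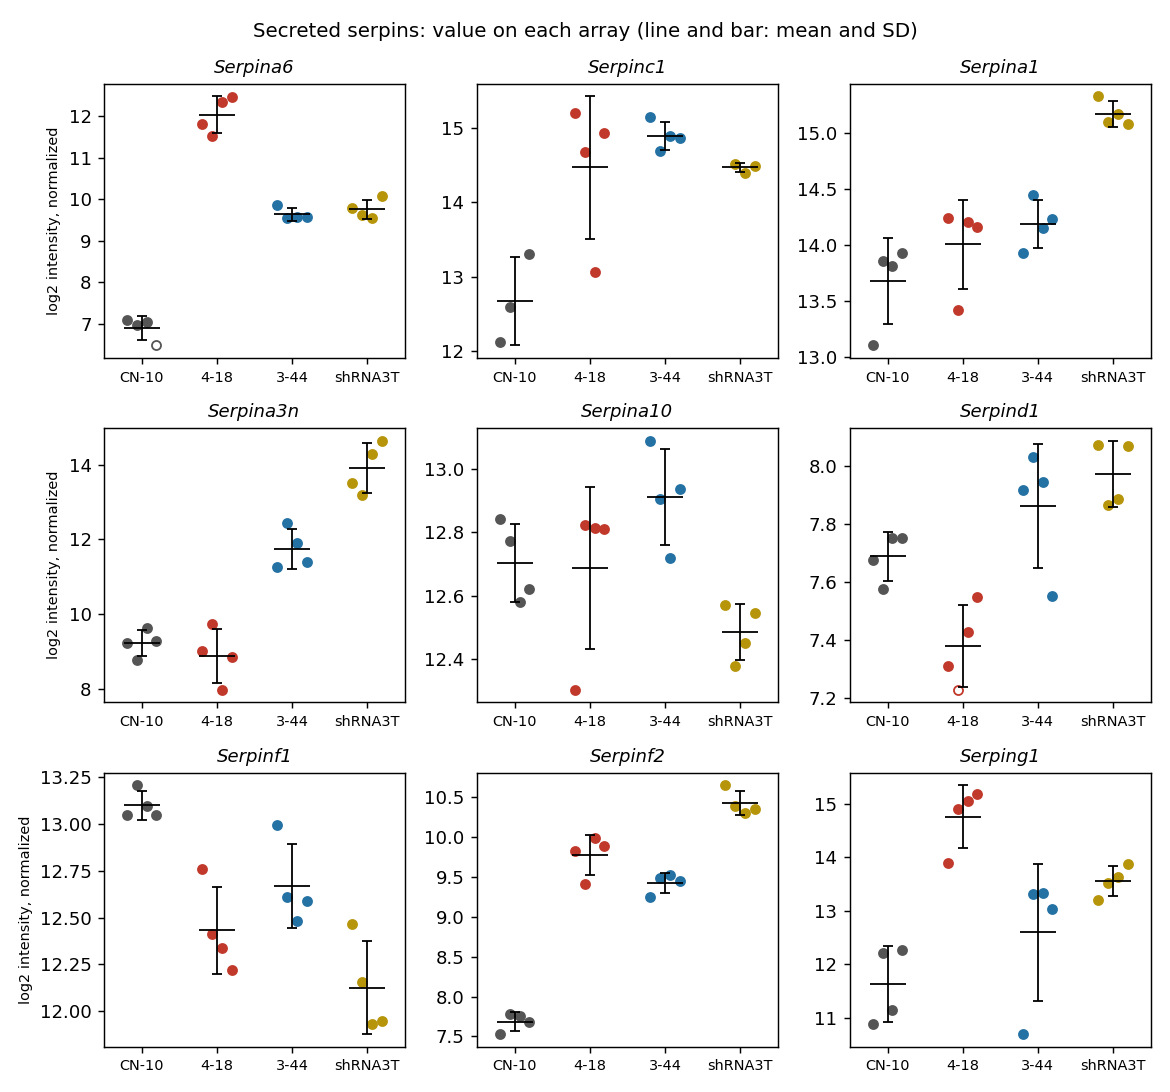
Normalized log2 intensity of the 9 serpins on each array, 1 panel per gene with its own scale, groups along the horizontal axis. Points are arrays (open where the probe was not well above background), lines and bars the mean and SD of 3 or 4 arrays; *Serpina6* is highest in 4-18 and *Serpina3n* in shRNA3T.

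*Serpina6* encodes corticosteroid-binding globulin, the carrier of glucocorticoids in plasma and a serpin without inhibitory action. In CN-10 it read 7.08, 6.96, 7.05 and 6.47 on the 4 arrays, the last of them not well above background. The arrays of 4-18 read 11.81, 11.53, 12.36 and 12.47, those of 3-44 read 9.85, 9.55, 9.56 and 9.57, and those of shRNA3T read 9.80, 9.63, 9.55 and 10.07. The 3 silenced groups thus lay above CN-10 without overlap, and 4-18 lay above both groups with shRNA3. As a description, 4-18 exceeded CN-10 by 5.15 log2 units, a ratio of 35.6, whereas the clone 3-44 exceeded it by 2.74 (ratio 6.69) and the pool by 2.87 (ratio 7.32), each with a standard error of 0.20. CN-10 lay near the background of the array here, and the size moved with the processing: over 12 ways it ran from 4.59 to 7.22 for 4-18, from 2.44 to 4.30 for the clone 3-44 and from 2.56 to 4.56 for the pool. Between silenced groups, the test placed 4-18 above 3-44 by 2.41 ± 0.20 (SE, 4 arrays each), a ratio of 5.31 (adjusted p = 5.35e-07), and above shRNA3T by 2.28 (ratio 4.86, adjusted p = 1.19e-06), a difference that ran from 1.54 to 2.66 with the processing and was called under all 12 ways. The clone and the pool with shRNA3 overlapped and differed by -0.13, with a 95% interval from -0.55 to 0.29 (adjusted p = 0.776).

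*Serpinc1* encodes antithrombin, the main inhibitor of thrombin and factor Xa, whose action heparin speeds. Its signal was 12.12, 12.59 and 13.30 on 3 arrays of CN-10, the spot of replicate 3 having been set aside as an outlier (13.19 where kept). In 4-18 it read 15.20, 14.67, 13.07 and 14.94, and in 3-44 it read 15.14, 14.69, 14.90 and 14.86. The 3 remaining arrays of shRNA3T read 14.52, 14.40 and 14.49, with replicate 1 set aside (13.82 where kept). All silenced arrays except replicate 3 of 4-18 lay above those of CN-10. The excess of the means over CN-10 was 1.80 in 4-18, 2.23 in 3-44 and 1.80 in the pool, ratios of 3.48, 4.68 and 3.48 that are given without a test. With the outlier spots kept the log2 differences were 1.67, 2.09 and 1.505. Over the 12 ways of processing the excess ran from 1.01 to 1.97 in 4-18 (1.06 with the unscaled deposited values), from 1.68 to 2.40 in 3-44 and from 0.64 to 2.04 in the pool.

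No difference of *Serpinc1* between silenced groups passed the test. The differences were -0.43 for 4-18 against 3-44 (interval -1.25 to 0.39), -0.00 for 4-18 against shRNA3T (-0.89 to 0.89) and 0.43 for 3-44 against shRNA3T (-0.46 to 1.31), so that changes of up to 1.31 log2 units are within the intervals. The further probe named *Serpinc1*, on the plus strand at chr13:76567599-76567658, was above background on 1 of 16 arrays and gave no measure of these differences.

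*Serpina3n* belongs to the rodent relatives of α1-antichymotrypsin, acute phase inhibitors that in rodents form a group of close copies. A probe may bind RNA of a copy, which was not tested. Its 4 arrays read 9.23, 8.76, 9.63 and 9.28 in CN-10 and 9.004, 9.73, 7.97 and 8.84 in 4-18. They read 11.26, 12.44, 11.91 and 11.40 in 3-44 and 13.51, 13.20, 14.28 and 14.64 in shRNA3T. CN-10 and 4-18 overlapped, 3-44 lay above both, and the pool lay above all other arrays. Against CN-10 it rose by 2.53 ± 0.38 (SE) in 3-44, a ratio of 5.77 (adjusted p = 0.000637), and by 4.68 in shRNA3T, a ratio of 25.7 (adjusted p = 1.55e-06), the latter ranking 3 among all gene names. In 4-18 the difference was -0.34 (interval -1.15 to 0.48, adjusted p = 0.599).

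Between silenced groups *Serpina3n* was the member that differed most. It was lower in 4-18 than in 3-44 (log2 difference -2.86, a ratio of 7.28, adjusted p = 6.21e-05), and lower in 4-18 than in the pool (log2 difference -5.02, a ratio of 32.4, adjusted p = 3.32e-07). The pool exceeded the clone with the same shRNA3 by a ratio of 4.45 (adjusted p = 0.00177). These 5 calls were kept in all 12 ways of processing and with each of the 16 arrays left out. *Fga*, a hepatocyte marker and acute phase gene, had the same order of groups, with means of 8.73 (4-18), 9.98 (CN-10), 11.64 (3-44) and 12.63 (shRNA3T). Of the 9 hepatocyte markers only *Fgb* shared this order (13.72, 14.39, 15.05 and 15.55). *Ttr* and *Alb* had their highest mean in 4-18, *Ahsg* in CN-10, and *Apoa1*, *Tf* and *Apob* in 3-44. *Apoa2* was lowest in CN-10. The part of these markers in the differences of *Serpina3n* was not tested.

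*Serpina1* encodes α1-antitrypsin, the chief inhibitor of neutrophil elastase. It read 13.10, 13.85, 13.81 and 13.93 in CN-10, 14.24, 13.41, 14.20 and 14.16 in 4-18, and 13.93, 14.45, 14.15 and 14.23 in 3-44. The pool read 15.33, 15.09, 15.17 and 15.08, above every array of the clones. The rise in shRNA3T over CN-10 was 1.496 ± 0.20 (SE), a ratio of 2.82 (adjusted p = 0.000127). The clones differed from CN-10 by 0.33 (4-18, adjusted p = 0.27, turned to -0.40 with the unscaled deposited values) and 0.52 (3-44, adjusted p = 0.149). Clone 4-18 was below the pool by a ratio of 2.24 (adjusted p = 0.000591), a call lost at -0.97 when replicate 2 of 4-18 was left out. Clone 3-44 was below the pool by a ratio of 1.97 (adjusted p = 0.00476), under the 2-fold limit.

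*Serping1* encodes the C1 inhibitor, which blocks the complement proteases C1r and C1s as well as plasma kallikrein and factor XII. Its values were 10.89, 12.21, 11.14 and 12.27 in CN-10 and 13.88, 14.90, 15.06 and 15.17 in 4-18. They were 10.69, 13.31, 13.33 and 13.04 in 3-44 and 13.20, 13.51, 13.64 and 13.87 in shRNA3T. In CN-10 and 3-44 its spread was the widest of the members. Replicate 1 was the lowest array in all 4 groups, and in 3-44 it lay with CN-10 while the other arrays lay above. The rise over CN-10 was 3.13 ± 0.51 (SE) in 4-18, a ratio of 8.75 (adjusted p = 0.000374), and 1.93 in shRNA3T, a ratio of 3.81 (adjusted p = 0.0225). In 3-44 it differed by 0.97 (interval -0.13 to 2.06, adjusted p = 0.336), and without replicate 1 of 3-44 by 1.60 (adjusted p = 0.0126). The call in shRNA3T was lost, at 1.68 to 1.90, when replicate 1 or 3 of CN-10 or replicate 3 or 4 of shRNA3T was left out, and also with 75th percentile scaling (1.90, adjusted p = 0.0529) or the unscaled deposited values (1.93, adjusted p = 0.121).

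Clone 4-18 exceeded 3-44 in *Serping1* by 2.16, a ratio of 4.48 (adjusted p = 0.00663). With 1 of the 16 arrays left out this difference ran from 1.53 to 2.45 and was called each time. Clone 4-18 exceeded the pool by 1.20 (interval 0.10 to 2.30, adjusted p = 0.125). The difference from the pool passed both limits with the processed signal (1.31, adjusted p = 0.0252) and without replicate 1 of 3-44 (1.20, adjusted p = 0.016). It also passed them with 75th percentile scaling (adjusted p = 0.0458), a fit of these 2 groups alone (adjusted p = 0.0205) or the replicate number as a block (adjusted p = 0.021). With the deposited values left unscaled the difference between the clones was 1.55 (adjusted p = 0.0947). Clone 4-18 thus had the highest mean of *Serping1* and the lowest mean of *Serpina3n*. Of its targets on the array, *C1r*, *C1s*, *Klkb1* and *F12*, none reached the 2-fold limit in any of the 6 comparisons, and *Klkb1* was not above background in any group. Under that limit, *C1r* exceeded CN-10 by 0.31, 0.47 and 0.31 in 4-18, 3-44 and the pool (adjusted p from 0.00169 to 0.017), *C1s* by 0.53, 0.69 and 0.50 (adjusted p from 0.000501 to 0.00375), and *F12* by 0.62 in the pool (adjusted p = 0.0105).

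*Serpinf2* encodes α2-antiplasmin, the fast inhibitor of plasmin. The arrays of CN-10 read 7.53, 7.78, 7.76 and 7.69, and those of 4-18 read 9.83, 9.41, 9.99 and 9.89. Clone 3-44 gave 9.25, 9.49, 9.53 and 9.46, and the pool 10.65, 10.40, 10.31 and 10.36. The silenced arrays all lay above CN-10 and the pool lay above both clones. As log2 differences from CN-10 this came to 2.09 in 4-18, 1.74 in 3-44 and 2.74 in the pool, ratios of 4.27, 3.35 and 6.68, as a description. The pool exceeded 4-18 by a ratio of 1.57 (adjusted p = 0.00112) and 3-44 by a ratio of 1.998 (adjusted p = 6.92e-05), just under the limit of 2-fold. The difference of 3-44 from the pool was called under 3 of 12 ways of processing and with 7 of 16 arrays left out in turn, and that of 4-18 from the pool was called with the unscaled deposited values (-1.28, adjusted p = 0.00253). Clone 4-18 exceeded 3-44 by 0.35 (adjusted p = 0.0476), and with the deposited values left unscaled this difference was -0.14.

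*Serpinf1* encodes pigment epithelium-derived factor, a secreted serpin without inhibitory action that restrains the growth of blood vessels. It was the one member with a lower mean than the control in all 3 silenced groups. CN-10 lay between 13.04 and 13.21, 4-18 between 12.22 and 12.76, 3-44 between 12.48 and 12.99 and shRNA3T between 11.93 and 12.47. No silenced array reached CN-10, but no difference reached 2-fold as processed here. Against CN-10, 4-18 stood at -0.67 ± 0.14 (SE, adjusted p = 0.00273), the clone 3-44 at -0.43 (adjusted p = 0.0822) and the pool at -0.97 (adjusted p = 0.000282), and 3-44 exceeded the pool by 0.54 (adjusted p = 0.0218). It was called lower in 4-18 with the unscaled deposited values (-1.42, adjusted p = 0.000378), and in the pool with array weights (-1.10, adjusted p = 6.86e-07) or without replicate 1 of shRNA3T (-1.09, adjusted p = 0.000123). The probes of *Serpinf1* and *Serpinf2* lie 34.381 kb apart on chromosome 10, and their differences from CN-10 had opposite signs in all 3 groups under each of the 12 ways of processing.

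*Serpina10* encodes the protein Z-dependent inhibitor of factor Xa. Its 16 values lay between 12.30 and 13.09, and it differed from CN-10 by -0.02 in 4-18, by 0.21 in 3-44 and by -0.22 in the pool (adjusted p from 0.301 to 0.944). Clone 3-44 exceeded the pool by 0.43 (adjusted p = 0.0294), a ratio of 1.34. The intervals against CN-10 ran from -0.47 to 0.46. With the unscaled deposited values 4-18 stood below CN-10 by a log2 difference of -0.76 (adjusted p = 0.033).

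*Serpind1* encodes heparin cofactor II, an inhibitor of thrombin. CN-10 averaged 7.69 ± 0.08, clone 4-18 averaged 7.38 ± 0.14, clone 3-44 averaged 7.86 ± 0.21 and the pool 7.97 ± 0.11 (SD, n = 4 each), near the background of the array. Clone 4-18 differed from 3-44 by -0.48 (adjusted p = 0.00355) and from the pool by -0.59 (adjusted p = 0.000791), while scaling to the 75th percentile turned these differences to 0.18 and 0.11. With the processed signal the difference from the pool was called (-1.03, adjusted p = 0.000931). Its difference from CN-10 was -0.31 (adjusted p = 0.044, turned to 0.35 by the same scaling), and those of 3-44 (0.17) and the pool (0.28) did not pass.

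**Figure D2:**
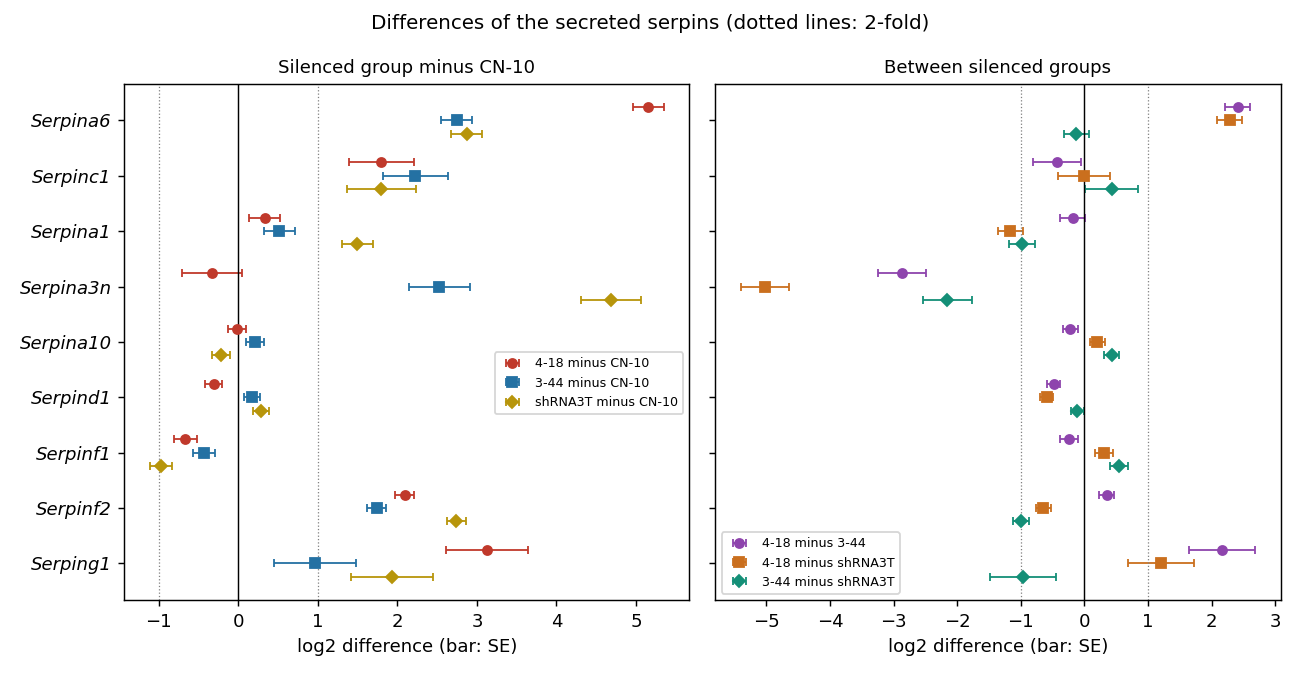
Log2 differences of the 9 serpins, silenced groups against CN-10 on the left and silenced groups against each other on the right, with bars of 1 SE and dotted lines at 2-fold. *Serpina6* in 4-18 (5.15) and *Serpina3n* in shRNA3T (4.68) lie farthest to the right of 0, and *Serpina3n* in 4-18 against shRNA3T (-5.02) farthest to the left.

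Of the inhibitors of thrombin or factor Xa, *Serpina10* and *Serpind1* stayed under 2-fold in all 6 comparisons as processed here, whereas *Serpinc1* had been taken for its difference from CN-10, and no comparison between these genes was made. *Serpina1* and *Serpina3n*, picked as acute phase proteins from no fixed list, were both highest in the pool. Against CN-10, *Serpina3n* was called in 3-44 as well, where *Serpina1* was not, and the difference between these genes was not tested. *Serpind1* and *Serpinf2* also had their highest mean in the pool. The highest mean was in 4-18 for *Serpina6* and *Serping1*, in 3-44 for *Serpinc1* and *Serpina10*, and in CN-10 for *Serpinf1*.

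Of the members, 4 (*Serpina10*, *Serpina6*, *Serpina1* and *Serpina3n*) belong to the serpin cluster of chromosome 6. Between the outermost probes, over 581.512 kb, the array read 21 gene names, 12 of them named as serpins, of which 8 were above background in at least 1 group. *Serpina6* lay 31.072 kb from *Serpina10*, whose differences from CN-10 were at most 0.22 in size. *Serpina4*, the inhibitor of tissue kallikrein, went down in 4-18 by a log2 difference of -1.62 (adjusted p = 5.91e-07) and in shRNA3T by -1.04 (adjusted p = 0.000104), while 3-44 stood at 0.61 (adjusted p = 0.0102). *Serpina11* was above the pool in 4-18 by 1.18 (adjusted p = 1.13e-05) and in 3-44 by 1.00 (adjusted p = 0.000129). *Serpina5* and *Serpina10* were called in no comparison. *Serpina3k* was above background in only 2 of the 4 groups and was called in no comparison. Its measured differences from CN-10 were -0.97 in 4-18, -0.85 in 3-44 and -0.69 in the pool (adjusted p from 5.79e-05 to 0.0022). A fall into the background may be larger than measured, so these values do not place it under 2-fold. In 4-18, *Serpina6* was thus higher and *Serpina4* lower than CN-10 within the same cluster.

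**Figure D3:**
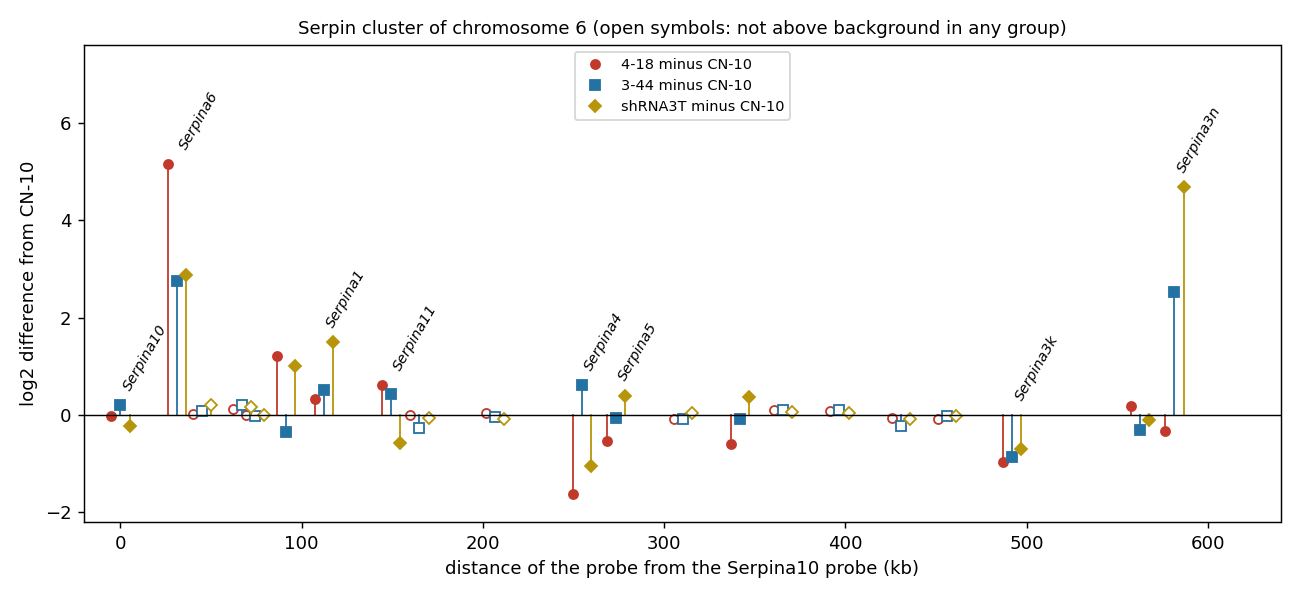
Log2 difference from CN-10 (vertical axis) for the 21 gene names read between *Serpina10* and *Serpina3n* on chromosome 6, against the distance of their probes in kb; symbols for the silenced groups are set slightly apart and names are given for serpins above background. *Serpina6*, at 31.072 kb, and *Serpina3n*, at 581.512 kb, are the only genes with a value above 2 log2 units, *Serpina3n* in 3-44 and shRNA3T only, and *Serpina1* in shRNA3T (1.496) is the highest between them.

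The array held 33 further genes of the serpin family, 13 of them above background. Of the 33, 2 were called lower than CN-10 in 4-18 (3.54% of all gene names were) and 1 in shRNA3T (1.19%). In 3-44 none was called in either direction by limma (7 higher and 4 lower at an unadjusted p under 0.05). *Serpinb9*, an intracellular inhibitor of granzyme B, was called at -1.04 in 4-18 (adjusted p = 0.00156).

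The proteases that these serpins inhibit or limit were counted next. Of 17 genes, 10 were above background, and against CN-10 none was called in 4-18. There, 3 higher and 3 lower genes passed the adjusted limit in limma but stayed under 2-fold (adjusted p from 3.76e-07 to 0.0131). Called against CN-10 were 1 higher in 3-44 (0.685% of all gene names were), and 1 higher (1.2%) and 1 lower (1.19%) in shRNA3T. *F10*, factor X, the target of antithrombin and of the *Serpina10* product, was higher than CN-10 by 1.92 in 3-44 (adjusted p = 1.18e-08) and by 1.16 in shRNA3T (adjusted p = 1.97e-06). No array of 4-18 read it well above background, and it was at least 3.75-fold higher in 3-44 and at least 2.21-fold higher in shRNA3T than there. *Plg*, plasminogen, the precursor of the target of *Serpinf2*, was lower in shRNA3T than in CN-10 (log2 difference -1.22, adjusted p = 6.51e-08), and also, under 2-fold, in 4-18 (-0.92, adjusted p = 3.76e-07) and in 3-44 (-0.30, adjusted p = 0.0179). *Proc*, protein C, was lower in 4-18 than in 3-44 (log2 difference -1.25, adjusted p = 1.4e-05).

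Receptors and cofactors of serpins gave 1 call in 6 comparisons, higher in shRNA3T, where 1.2% of all gene names were. Of 8 listed genes 7 were on the array and 5 above background, and *Sdc4*, a heparan sulfate proteoglycan of the cell surface, rose by 1.15 in shRNA3T (adjusted p = 9.45e-07).

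All 14 liver transcription factors listed were above background. Against CN-10, 2 were called higher in 4-18 (2.62% of all gene names were), 1 in 3-44 (0.685%) and none in shRNA3T (1.2%) by limma, with 5 higher there at an unadjusted p under 0.05. None was called lower or between silenced groups, where 1 to 4 were higher and 2 to 4 lower at an unadjusted p under 0.05. *Nr5a2*, the nuclear receptor LRH-1, rose by 1.39 in 4-18 (adjusted p = 0.000367) and 1.07 in 3-44 (adjusted p = 0.00861), while the pool stood at 0.66 (adjusted p = 0.0794). *Ppara*, the receptor that drives fatty acid oxidation, rose by 1.15 in 4-18 (adjusted p = 1.23e-05). The genes for HNF1, HNF4, FOXA and C/EBP factors did not reach the 2-fold limit in any comparison. Under that limit, *Foxa3* exceeded CN-10 by 0.61, 0.87 and 0.66 (adjusted p from 0.00217 to 0.00957), and *Cebpb* differed by -0.72 in 4-18 (adjusted p = 0.0129).

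Genes of glucocorticoid and IL-6 signalling, which answer to the steroid that *Serpina6* carries or drive acute phase serpins, were listed as well. Of 12 genes, 10 were above background, and 2 were lower than CN-10 in 4-18 (3.54% of all gene names were) with none called by limma in the other 5 comparisons (1 to 3 higher and 1 to 6 lower at an unadjusted p under 0.05). *Tsc22d3* and *Fkbp5*, both known targets of the glucocorticoid receptor, were lower in 4-18 than in CN-10, with log2 differences of -1.39 (adjusted p = 0.000687) and -1.11 (adjusted p = 1.23e-05). *Stat3*, *Socs3*, *Il6st* and *Il6r* stayed under 2-fold in all 6 comparisons, and of these *Il6r* exceeded CN-10 by 0.37 in the pool (adjusted p = 0.00607). *Il6st* stood at 0.91 ± 0.36 (SE) in the pool against CN-10 (adjusted p = 0.131). *Stat3* stood at -0.89 ± 0.40 (SE) in 3-44 against the pool (adjusted p = 0.198). With these standard errors a 2-fold difference of either gene is not excluded.

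**Figure D4:**
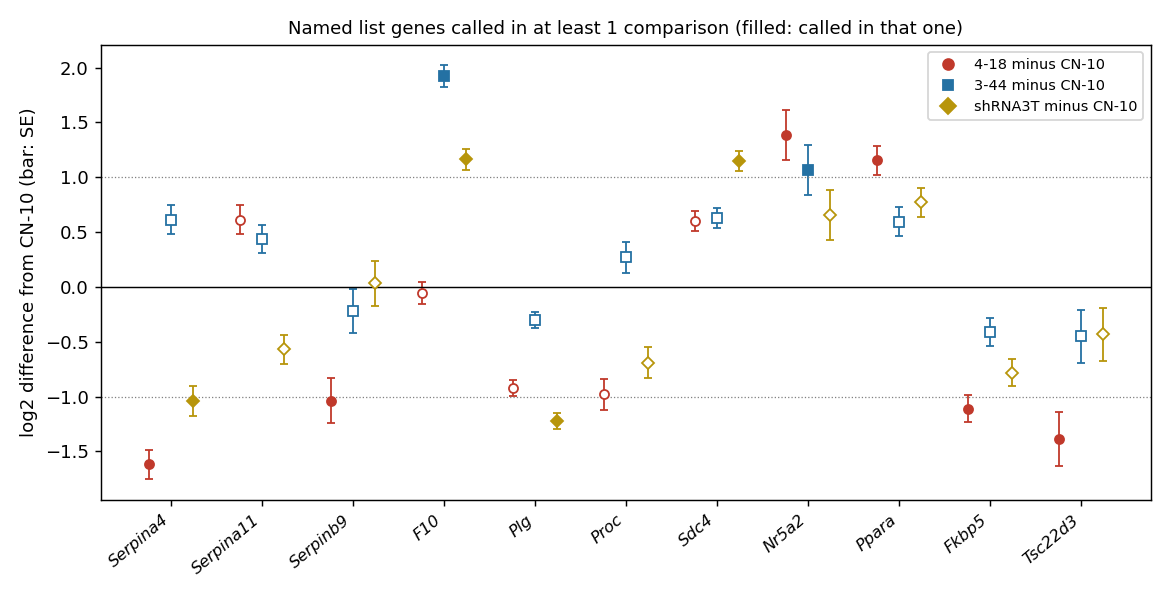
Log2 differences from CN-10 (vertical axis, bars of 1 SE) for listed genes named in the text and called in at least 1 of the 6 comparisons, with filled symbols where the gene was called in that comparison. *F10* stands at 1.92 in 3-44 and *Serpina4* at -1.62 in 4-18; *Serpina11* and *Proc* were called only between silenced groups.

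The genes whose pattern over the 16 arrays was most like that of *Serpina6*, out of 15549 compared, were *Rhd* (Pearson r = 0.974), *Sstr2* (0.973), an unnamed probe (0.954), *Hmha1* (0.952) and *Gcnt3* (0.951). Each of the named genes had its highest mean in 4-18 and its lowest in CN-10, as *Serpina6* had. For *Serpinc1*, over 14 arrays and 15770 genes, they were a transcript known by its Ensembl number only (0.971), *Tfr2* (0.968), *Snx13* (0.955), an unnamed probe (0.954) and a further Ensembl transcript (0.946). *Tfr2*, transferrin receptor 2, was higher than CN-10 by 1.22, 1.32 and 1.00 in 4-18, 3-44 and shRNA3T. The arrays form 4 groups on 4 slides, so these coefficients mostly restate the order of the group means, and they are given as a description.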

How the data were processed

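RNA of 16 H35 cultures was hybridized to one-color arrays, 4 per group, and groups were taken from the sample labels. The deposited intensity values are each spot's mean signal and its median local background, quantified by the authors with Feature Extraction 10.7.3.1 and not normalized; a processed signal intensity stands beside them. A deposited table in another unit had lost its decimal points; restored, its values equalled log2 of the normexp-corrected median signal within 4e-11, unscaled between arrays.

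With limma 3.58.1 under R 4.3.3, normexp (offset 50) corrected the background, 1377 control spots were left out, log2 values were quantile normalized, spots with an outlier flag were dropped, and the others averaged by probe. The moderated linear model had 1 mean per group over 16 arrays, and p-values were adjusted over 30367 probes. Each gene was read by its probe of highest mean level. The steps were tested on simulated data. Array names were kept: 9 of 10 member probes matched the RefSeq gene table of GRCr8, all with the same symbol. Members, gene lists and tests were chosen with earlier results of these data known. From each list were named at most the 3 called genes with the largest differences, and genes a sentence turns on. A called gene of the lists is not reported here. Replicates correlated at 0.987 to 0.998 and none were identical. The labels number them as replicates of 1 clone or pool and the study calls them biological replicates, so p-values measure the spread between cultures. The number of arrays limits the precision.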

Additional observations from a re-analysis of the deposited data

Results flagged for a closer look

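Within a group of 4 arrays, a single array stood apart from the other 3 in 5 of the 34 groups examined (Dixon's ratio), where chance gives about 1 in 20. *Serpina6* read 9.85 on replicate 1 of 3-44, with the next array at 9.57. *Serpina1* read 13.10 on replicate 1 of CN-10 (next array 13.81) and 13.41 on replicate 2 of 4-18 (next array 14.16). *Serpina10* read 12.30 on replicate 1 of 4-18, below the next at 12.81. *Serping1* read 10.69 on replicate 1 of 3-44, with the next array at 13.04.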

How the results depend on the processing

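No member reversed its direction where it was called. The counts below that cover comparisons with CN-10 include *Serpina6*, *Serpinc1* and *Serpinf2*. These were chosen on these arrays, so their calls against CN-10 are a description with no test. Over 54 differences of members (9 genes in 6 comparisons), 626 of 648 values under 12 ways of processing and 843 of 864 with 1 of 16 arrays left out kept their side of the limits; sign changes of values not called count as kept. The number of members called in 3-44 against shRNA3T, 1 as reported, was 2 with 75th percentile scaling, cyclic loess or the deposited values, 3 at a 1.5-fold limit and 5 with no fold limit, and it ranged from 1 to 3 with an array left out. The number in 4-18 against shRNA3T, 3 as reported, was 5 with the processed signal, a 1.5-fold limit or no fold limit. In 4-18 against 3-44, 3 became 5 with no fold limit. In shRNA3T against CN-10, 6 became 4 with 75th percentile scaling, the deposited values, or replicate 1 of CN-10 or 4 of shRNA3T left out, and 7 with array weights, where *Serpinf1* was called lower. Scaling to the 75th percentile moved the median of all probes by 0.86 in 4-18 against CN-10, 0.84 against 3-44 and 0.97 against shRNA3T; the difference of *Serpind1* in 4-18 from CN-10 went from -0.31 to 0.35 with it, and that of *Serpina1* from 0.33 to 0.32. *Serpinc1* in shRNA3T fell to 0.64 when its probe at background was averaged in. The difference of *Serping1* between 4-18 and shRNA3T, 1.20, passed both limits with the processed signal, 75th percentile scaling, a fit of these 2 groups alone, or replicate 1 of 3-44 left out. The cause of these changes was not tested.

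Same-numbered arrays were not treated as pairs, since the labels name no shared batch: 15 of 24 pairs correlated above 0.1 (range -0.12 to 0.49; the 6 pairs of replicate 1 from 0.19 to 0.49) and 9 of 16 arrays correlated best with their own number. With the number as a replicate block the calls stayed at 4, 4 and 6 against CN-10, at 3 in 4-18 against 3-44 and at 1 in 3-44 against shRNA3T, and became 4 in 4-18 against shRNA3T through *Serping1* (adjusted p = 0.021). The counts against CN-10 again include *Serpina6*, *Serpinc1* and *Serpinf2*, chosen on these arrays, and are no result about the family.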
